A study of Mus musculus with 4 samples.

Results

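The genes described here are 39 interferon response genes, chosen by name from the 32285 genes of the deposited matrices and read out in bone marrow cells of 6 mice. The members were listed by symbol, without the Ifi200 family, and all 39 had UMIs (unique molecular identifiers, 1 per captured RNA molecule) in the cells kept. They comprise 8 antiviral effectors, 5 members of the OAS family, 8 interferon-inducible GTPases, 4 nucleic acid sensors, 4 transcription factors, 3 genes of class I antigen processing and 7 other induced genes. They lie on 15 chromosomes, and 7 of them are on chromosome 5.

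Interferons are secreted proteins that cells release on infection or inflammation. Type I interferons bind one receptor pair and switch on target genes that carry the interferon-stimulated response element (ISRE), while interferon-gamma acts through a receptor of its own and through the gamma-activated site (GAS). Haematopoietic stem cells are known to respond to interferons and to keep part of this programme switched on without infection. Rapamycin, the drug given in this study, inhibits the mTOR kinase.

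The mice were female, 6 weeks old and of the genotype Tppp3CreER LSLTdTomato. Such mice carry a Cre recombinase that tamoxifen activates in cells using the Tppp3 promoter, and a TdTomato reporter that Cre switches on. In the tamoxifen group (n = 2) mice were injected with tamoxifen on postnatal days 0 and 3. The tamoxifen+rapamycin group (n = 2) had both agents on those days, and the late rapamycin group (n = 2) had rapamycin on postnatal day 30 and no tamoxifen. No group was left without any agent. On each of 2 days 1 mouse of every treatment was tagged with its own hashtag antibody and run in 1 droplet pool, so that replicate number and day are the same thing. The labels give the cells as Lin-Sca+Kit+ and Lin-Sca-Kit+ progenitors and whole bone marrow, and the deposited files do not separate these fractions.

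A treatment was assigned to each cell from the deposited hashtag table. That table gives hashtags 1 and 4 to tamoxifen+rapamycin and 2 and 5 to tamoxifen, whereas the sample labels call mice 1 and 4 tamoxifen. If the mouse numbers of the labels are hashtag numbers, the tamoxifen and tamoxifen+rapamycin groups below are exchanged, and every direction between those 2 groups turns round. The table's control hashtags were read as late rapamycin.

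Of 34122 cells kept, 24042 fell into 7 gates, each set by at least 3 of a list of marker genes that holds no member. The gates are named by those markers: a haematopoietic stem cell (HSC) gate of 3907 cells, a lymphoid-primed progenitor gate of 2456, a B lineage gate of 3256, a neutrophil progenitor gate of 5216, a neutrophil gate of 4489, a monocyte gate of 999 and an erythroid progenitor gate of 3719. Some genes outside the gating lists stood where the names place them. Meis1 was at 1519 CPM (UMIs per 1e6, before any scaling) in the HSC gate and Ighm at 3052 in the B lineage gate. Lyz2 was at 14608 in the monocyte gate and Gata1 at 184 in the erythroid gate. The HSC and lymphoid-primed gates were less distinct, since Meis1 was at 812 in the lymphoid-primed gate. Cd34 was higher there (397) than in the HSC gate (256). In the lymphoid-primed gate 1214 of 2456 cells had only the minimum of 3 markers. In the HSC gate 1389 of 3907 cells had a margin under 2-fold over the next list. The summed counts of 1 gate and 1 mouse formed a library, and the 42 libraries held 95 to 1694 cells and 211552 to 16036506 UMIs. In such sums a smaller share of cells with a gene's RNA and less RNA per cell cannot be told apart. Late rapamycin replicate 1 stood apart from the other mice, with 1694 cells in the neutrophil progenitor gate against 504 to 916 and 105 cells in the B lineage gate against 447 to 890. Its summed S100a8 and S100a9 RNA was at 12725 CPM in the neutrophil progenitor gate against 1554 to 4246. It was at 3851 in the monocyte gate against 263 to 699 and at 237816 in the neutrophil gate against 187394 to 205286. Its summed Ighm and Cd74 RNA was at 16318 in the B lineage gate against 2756 to 5820. The 2 pools shared 126 cell barcodes, 74 of them among cells with 1 hashtag.

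Promoter sequences were matched for 30 of the 39 members in RefSeq (GRCm38.p6, from 250 bases before to 50 bases after the transcript start), and they are shown because the members are defined by their response to interferon. The ISRE was searched as GAAANNGAAA on both strands and the GAS as TTCNNNGAA, which reads the same on both strands. An ISRE match was found in 17 of the 30 members (56.7%), against 3.99% of all 27025 genes with a promoter. A GAS match was found in 10 members (33.3%), against 9.55% of all genes. The 100-base stretches below come from members that the treatment results turn on and from Isg15, a ubiquitin-like modifier often used as a marker of the response. Capitals mark ISRE letters, on either strand, and overlapping matches run together.
Isg15 (chr4:156200836-156200935, minus strand): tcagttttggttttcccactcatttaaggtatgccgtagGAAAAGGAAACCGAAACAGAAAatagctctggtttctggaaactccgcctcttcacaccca
Bst2 (chr8:71537545-71537644, minus strand): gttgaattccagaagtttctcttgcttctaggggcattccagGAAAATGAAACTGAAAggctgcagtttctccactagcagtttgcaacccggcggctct
Rsad2 (chr12:26456518-26456617, minus strand): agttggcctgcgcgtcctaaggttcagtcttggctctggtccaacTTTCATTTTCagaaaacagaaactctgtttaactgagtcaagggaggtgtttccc
Igtp (chr11:58199477-58199576, plus strand): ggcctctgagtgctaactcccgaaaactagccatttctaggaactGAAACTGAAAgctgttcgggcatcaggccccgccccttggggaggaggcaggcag
Oasl2 (chr5:114896834-114896933, plus strand): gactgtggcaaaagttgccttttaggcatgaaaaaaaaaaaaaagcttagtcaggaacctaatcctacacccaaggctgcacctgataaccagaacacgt
Isg15 held 3 overlapping ISRE matches in its window, Bst2 held 2, and Rsad2 and Igtp held 1 each. The Oasl2 window held neither motif, which says only that these letters are not within it.

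Members were expressed at widely different levels in the HSC gate. Values from here on are CPM after TMM scaling, as mean ± SD over the 6 mice. They count 3′ ends, 1 per molecule, and were not divided by gene length. The highest members were Psmb8, a subunit of the immunoproteasome that cuts proteins into class I peptides, at 223 ± 27.3 CPM, Psmb9, its partner subunit, at 143 ± 20.4, and Trim30a, a ubiquitin ligase of the TRIM family, at 119 ± 2.35. The lowest were Ifit3, an RNA-binding antiviral protein, at 1.69 ± 0.398 and Gbp4, a guanylate-binding protein, at 2.55 ± 0.799. Summed over the 39 members, the HSC gate reached 1726 ± 46.4 CPM with a range over mice of 1660 to 1769.

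The summed level of the members differed between lineages. It was 1825 ± 101 CPM in the lymphoid-primed gate, 1653 ± 142 in the B lineage gate and 1316 ± 75.5 in the neutrophil progenitor gate. The erythroid gate was lowest at 786 ± 93.6, and the neutrophil and monocyte gates were highest at 3084 ± 743 and 4247 ± 526. After TMM the ranges of the HSC, lymphoid-primed and B lineage gates overlapped. So did those of the neutrophil (2217 to 4195) and monocyte (3472 to 5024) gates. With plain UMI totals the B lineage range lay below that of the HSC gate, and the neutrophil range below that of the monocyte gate. The neutrophil value depended on the scaling, since plain UMI totals gave 1674 CPM there and 2213 in the HSC gate. The TMM factors were 0.443 to 0.599 in the neutrophil libraries and 1.27 to 1.3 in the HSC libraries.

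**Figure D1:**
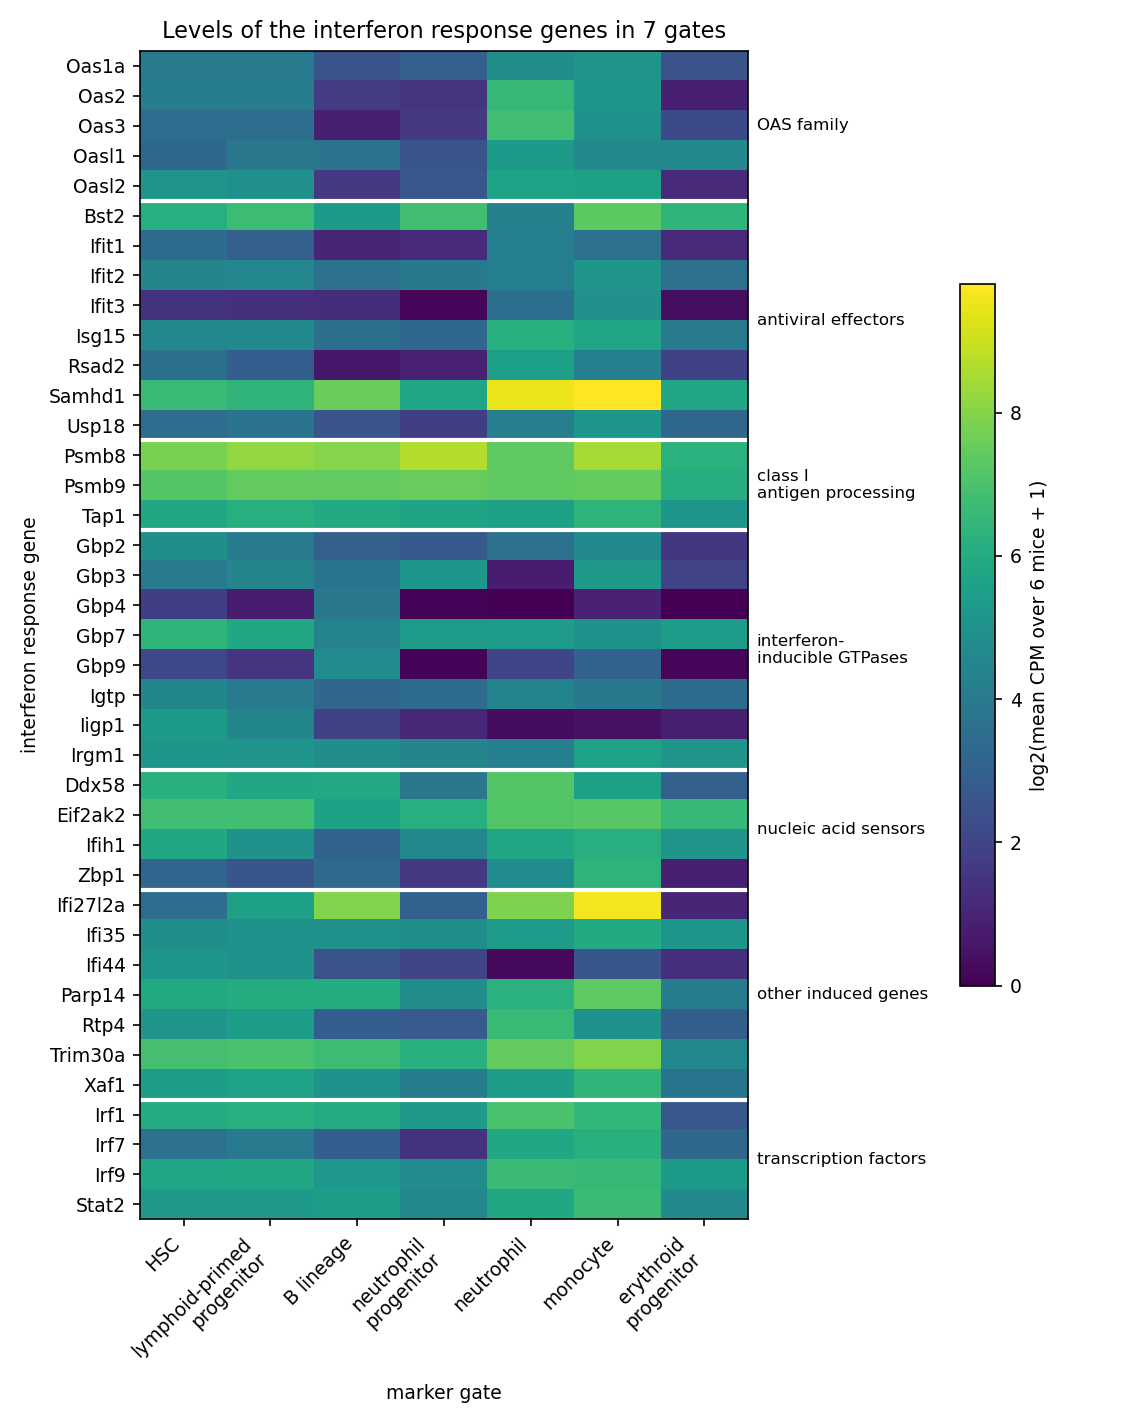
Mean level of each of the 39 members (rows, grouped by role) in 7 marker gates (columns), as log2 of the mean CPM over 6 mice plus 1. Psmb8 and Psmb9 are bright in nearly every gate, Samhd1 and Ifi27l2a are brightest in the monocyte gate (884 and 779 CPM), and Iigp1 and Ifi44 are brightest in the 2 earliest gates.

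Each lineage was then compared with the HSC gate in 1 fit over all genes, with the mouse as a block (edgeR's quasi-likelihood test, Benjamini-Hochberg adjusted p under 0.05). In the monocyte gate 26 of 39 members were higher and 4 lower, where 32.6% of 11650 genes were called higher and 35.1% lower. In the neutrophil gate 23 were higher and 9 lower, against 37.7% and 45.7% of genes. The lymphoid-primed gate had 6 higher and 7 lower, against 13.8% and 12.9%. The B lineage gate had 6 higher and 23 lower, against 34.8% and 32.3%, and the neutrophil progenitor gate 4 higher and 32 lower, against 36.5% and 36.4%. In the erythroid gate 3 were higher and 34 lower, against 38.9% and 43.3%.

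The medians of the fitted log2 differences from the HSC gate over the 39 members were 0.83 in the monocyte gate, 0.55 in the neutrophil gate, 0.04 in the lymphoid-primed gate, -0.51 in the B lineage gate, -1.21 in the neutrophil progenitor gate and -1.72 in the erythroid gate. Over all genes they were -0.08, -0.20, 0.01, 0.03, -0.00 and -0.08 in the same order. With plain UMI totals the neutrophil count turned to 9 higher and 23 lower with a median of -0.71, and there the median over all genes was -1.45. Of all genes 16.3% were called higher and 72.9% lower there. The monocyte count became 20 higher and 6 lower and the lymphoid-primed count 3 higher and 8 lower (4 and 8 with edgeR's RLE factors). With plain totals the all-gene medians of the other gates lay between -0.42 and -0.06. Called higher and lower were 10.3% and 15.9% of all genes in the lymphoid-primed gate and 24.4% and 42.1% in the B lineage gate. The neutrophil progenitor gate had 24.5% and 50.2%, the monocyte gate 23.7% and 48.4% and the erythroid gate 28.5% and 53.8%. The plain-total counts below stand against these shares.

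Among the 3 class I antigen processing genes, Psmb8, Psmb9 and the peptide transporter Tap1, all 3 were higher than in the HSC gate in the lymphoid-primed and the monocyte gates with TMM, but with plain totals 1 of 3 was, Psmb8 in each. In the B lineage gate 2 of 3 were higher with TMM and 0 with plain totals. In the neutrophil progenitor gate Psmb8 was higher under both scalings. In the neutrophil gate Psmb8 was lower under both, by 0.42 after TMM and 1.66 with plain totals, while Psmb9 was higher after TMM and all 3 were lower with plain totals. In the erythroid gate all 3 were lower under both. Psmb8 reached 400 ± 29.8 CPM in the neutrophil progenitor gate, the highest member there, 0.84 ± 0.07 (log2, SE) above the HSC gate in 6 of 6 mice (edgeR adjusted p = 3.3e-13). For Psmb9 the difference was 0.33 in that gate and 0.28 in the B lineage gate, and with plain totals 0.03 and 0.04, which did not pass. Psmb9 and Tap1 overlap by 212 bases on opposite strands, and Tap1 and Psmb8 lie 495 bases apart on the same strand.

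Among the antiviral effectors, Samhd1, an enzyme that breaks down the nucleotides that viruses need, was the highest member in the neutrophil and monocyte gates. It was at 96.7 ± 12.1 CPM in the HSC gate, 724 ± 96.8 in the neutrophil gate and 884 ± 115 in the monocyte gate, with no overlap between the HSC range (78.9 to 113) and the monocyte range (735 to 1031). The difference was 3.19 ± 0.15 in the monocyte gate and 2.91 ± 0.15 in the neutrophil gate, where plain totals gave 1.68. Ifit3 was 4.06 ± 0.41 higher in the monocyte gate, at 30.0 ± 15.8 CPM. Of the 8 effectors 6 were higher and 1 lower in the neutrophil gate (4 and 2 with plain totals), and 6 in the B lineage, 7 in the neutrophil progenitor and 6 in the erythroid gate were lower. Bst2, or tetherin, which holds budding viruses at the cell surface, went the other way from most of its group in 3 gates. It was 0.61 ± 0.09 higher in the neutrophil progenitor gate and 1.95 lower in the neutrophil gate (18.4 ± 3.77 CPM; 3.22 lower with plain totals). Bst2 was also among the 3 highest members of the erythroid gate, at 84.0 ± 11.3 CPM. There it was the 1 effector called higher, by 0.21 (edgeR adjusted p = 0.031), and with plain totals it was 0.14 below the HSC gate, which did not pass.

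The transcription factors Irf1, Irf7, Irf9 and Stat2 were all 4 higher in the monocyte gate (3 of 4 with plain totals) and all 4 lower in the neutrophil progenitor and the erythroid gates under both scalings. In the neutrophil gate the direction depended on the scaling, with 4 of 4 higher after TMM and 1 higher (Irf7) and 2 lower with plain totals. Irf7, which amplifies type I interferon production, was at 72.7 ± 18.4 CPM in the monocyte gate against 11.9 ± 2.69 in the HSC gate (2.54 ± 0.21). Plain totals gave 2.21 for that difference. The nucleic acid sensors differed among themselves. Zbp1, a sensor of Z-form nucleic acids, was 3.25 ± 0.22 higher in the monocyte gate, whereas Ddx58 (RIG-I, a sensor of viral RNA) was 0.64 ± 0.18 lower there. Ifih1 (MDA5, a sensor of long double-stranded RNA) was 3.05 ± 0.18 lower in the B lineage gate. In the neutrophil gate 3 of the 4 sensors were higher after TMM, and with plain totals 0 were higher and 2 lower. All 4 sensors were lower in the erythroid gate, where the kinase Eif2ak2 (PKR) was still the highest of all members, at 90.7 CPM.

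The OAS family is named for enzymes that make the 2-5A signal, which activates RNase L. Of its 5 members 4 were higher in the monocyte gate under both scalings, and 4 in the neutrophil gate (3 higher and 1 lower with plain totals). Oas3 was at 109 ± 34.6 CPM in the neutrophil gate against 10.3 ± 2.02 in the HSC gate, a difference of 3.39 ± 0.18 (2.15 with plain totals). In the erythroid gate 4 of the 5 were lower, and Oasl1 alone was higher, by 1.43 ± 0.22 in 6 of 6 mice, with 23.6 ± 5.35 CPM there and 8.69 ± 2.64 in the HSC gate. Plain totals gave 1.08 for Oasl1, which still passed (edgeR adjusted p = 2.7e-05).

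The interferon-inducible GTPases, which attack the vacuoles of intracellular pathogens, were the group most often lower outside the HSC gate. Lower were 5 of 8 in the lymphoid-primed and the B lineage gates. In the neutrophil progenitor and erythroid gates 7 were lower, and in the neutrophil gate 6. Plain totals gave 8 of 8 in the neutrophil gate, where they called 72.9% of all genes lower. The monocyte gate had 3 higher (Gbp3, Gbp9 and Irgm1) and 2 lower, and with plain totals 1 higher and 4 lower. Iigp1 had 672 UMIs in the HSC gate, 39.8 ± 9.5 CPM with a range of 27.4 to 50.1, and 21.3 ± 4.86 CPM in the lymphoid-primed gate. It was at 2.75 ± 2.27 CPM in the B lineage gate, 1.21 ± 0.690 in the neutrophil progenitor gate and 0.818 ± 0.754 in the erythroid gate, 3.97 to 5.45 lower on the log2 scale. The monocyte gate held 1 Iigp1 UMI and the neutrophil gate 2. Gbp3 was an exception: at 35.8 ± 5.52 CPM it was 1.17 ± 0.13 higher in the neutrophil progenitor gate, and it was down to 6 UMIs in the neutrophil gate. Gbp4 had no UMI in the neutrophil gate, which allows up to 0.496 CPM over the 6 libraries together (3 counts) and puts it at least 5.14-fold lower than in the HSC gate. In the B lineage gate Gbp9 and Gbp4 were 2.91 and 2.30 higher. These are near-identical genes that overlap on chromosome 5, so how reads were shared between them is uncertain.

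Of the other induced genes, Ifi27l2a, a small membrane protein, spanned the widest range. It was at 10.5 ± 3.24 CPM in the HSC gate, 46.4 ± 9.89 in the lymphoid-primed gate, 241 ± 33.2 in the B lineage gate, 240 ± 178 in the neutrophil gate and 779 ± 181 in the monocyte gate. Those differences were 2.20, 4.53, 4.42 (3.21 with plain totals) and 6.23, each higher in 6 of 6 mice. Ifi44 was instead low in every gate but the HSC and lymphoid-primed gates. It was at 34.2 ± 3.59 CPM in the HSC gate, 5.14 ± 3.39 in the monocyte gate and 1.5 ± 0.792 in the erythroid gate. It had 2 UMIs in the neutrophil gate. With plain totals the difference from the HSC gate was -2.97 in the B lineage gate and -3.79 in the neutrophil progenitor gate. Trim30a was among the 3 highest members in the neutrophil gate too, at 173 ± 123 CPM, 0.57 above the HSC gate after TMM and 0.71 below it with plain totals. Ifi35 was 0.26 higher in the erythroid gate and 0.09 lower with plain totals.

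Cells were next examined singly, after each was thinned to 2000 UMIs so that depth did not set the counts. The thinning left out 414 HSC gate cells, 1885 of 4489 in the neutrophil gate and, at most, 2244 of 3256 in the B lineage gate. Over all cells of a gate, a mean of 5.56 members per cell had a UMI in the monocyte gate, 3.91 in the lymphoid-primed gate and 3.84 in the HSC gate. The neutrophil, B lineage and neutrophil progenitor gates had 2.49, 2.48 and 2.36, and the erythroid gate 1.59. Without thinning the means were 7.13, 6.72, 5.91, 3.35, 2.92, 6.31 and 5.94. By mouse, the thinned means ran from 1.58 to 2.94 in the neutrophil gate and 2.10 to 2.92 in the B lineage gate. They ran from 2.22 to 2.55 in the neutrophil progenitor gate, so these 3 gates overlapped. Late rapamycin replicate 1 held 1147 of the 2604 neutrophil gate cells, at 2.94.

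A small number of cells carried many members at once. Cells with at least 12 members were counted, a limit set after the distribution had been seen. They made up 4.90% of the monocyte gate (40 of 817, exact binomial 95% interval 3.52 to 6.61%), 1.22% of the lymphoid-primed gate (29 of 2382, 0.817 to 1.74%) and 0.916% of the HSC gate (32 of 3493, 0.627 to 1.29%). The neutrophil gate had 6 such cells of 2604, the B lineage gate 2 of 1012, the neutrophil progenitor gate 1 of 5169 and the erythroid gate 0 of 3686, which allows up to 0.1%. Of the 6 in the neutrophil gate, 4 were from late rapamycin replicate 1, 1 from replicate 2 and 1 from tamoxifen+rapamycin replicate 2. The intervals cover counting error only. Just below the limit, 17 HSC gate cells had 11 members, and the highest HSC gate cell had 23.

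Such cells of the HSC gate were found in all 6 mice, 3 to 11 per mouse. The share was 0.564% and 1.42% in the tamoxifen mice, 0.840% and 0.807% in the tamoxifen+rapamycin mice and 1.40% and 0.588% in the late rapamycin mice, so the treatments overlapped. Among the 32 cells, Ifit1 had a UMI in 53.1% against 1.91% of other HSC gate cells, Ifi44 in 56.3% against 8.12% and Iigp1 in 50% against 7.11%. Psmb8, common in all HSC gate cells, had 50% against 41.7%. Members chose these cells, so those shares are a description. A list of 40 other interferon-induced genes that did not choose them was at 5395 to 9308 CPM in these cells and 3129 to 5179 in the other HSC gate cells, and was higher in 6 of 6 mice. In the monocyte gate the cells had UMIs of Isg15 in 60.0% against 5.02% and of Rtp4, a protein that restricts flaviviruses, in 55.0% against 3.73%.

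**Figure D2:**
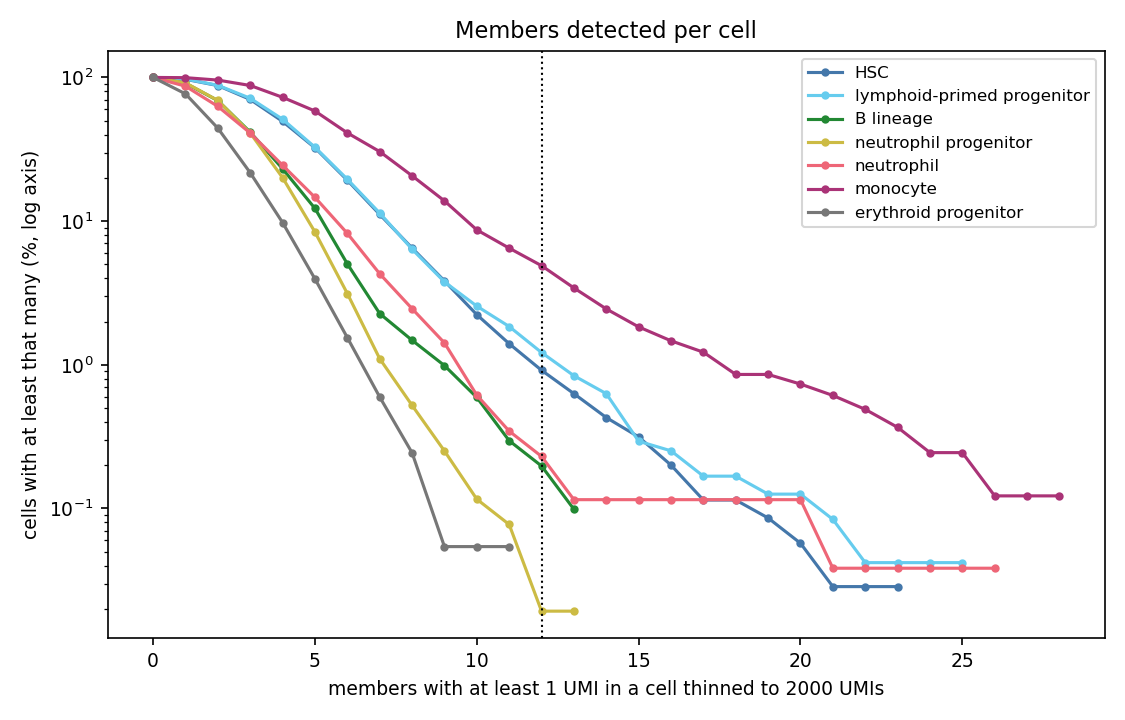
Share of cells (log axis) in each of 7 gates with at least the given number of members detected, after thinning every cell to 2000 UMIs. The dotted line marks 12 members, which 4.90% of monocyte gate cells and 0.916% of HSC gate cells reach and no erythroid gate cell does.

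Treatments were compared within each gate with edgeR's quasi-likelihood test and the day as a block. With 2 mice per treatment these p-values rest on a spread shared by all 3 treatments, and each pair of comparisons shares 2 mice. Few members passed. Of 234 tests of a member in a gate, 1 passed between tamoxifen+rapamycin and tamoxifen, 2 between late rapamycin and tamoxifen, and 2 between tamoxifen+rapamycin and late rapamycin. In the HSC gate 37 of 39 members had enough counts to be tested, in the erythroid and B lineage gates 30, and 23 members were tested in all 7 gates.

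The background was low as well. Between tamoxifen+rapamycin and tamoxifen 0.0973% of tested genes passed in the HSC gate, 0.0667% in the lymphoid-primed, 0.126% in the B lineage, 0% in the neutrophil progenitor and neutrophil, 0.0278% in the monocyte and 1.43% in the erythroid gate. Between late rapamycin and tamoxifen the same gates had 0.601%, 0.171%, 0.0105%, 0%, 0%, 0.0139% and 2.49%. Between tamoxifen+rapamycin and late rapamycin they had 0.628%, 0.409%, 0.0946%, 0%, 0%, 0% and 0.615%. At an unadjusted p under 0.05 stood 26, 33 and 35 of the 234 member tests (11.1%, 14.1% and 15%), against 5.31%, 8.6% and 8.29% of all tests in those comparisons. DESeq2 called 0, 0 and 1 members, but it did not give every member an adjusted p. Between late rapamycin and tamoxifen 14 of 37 members had one in the HSC gate and 7 of 36 in the lymphoid-primed gate. In the erythroid gate 0 of 30 had one, so DESeq2 did not test the 2 edgeR calls made there.

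As a group the members had medians near 0 in the HSC gate. The median log2 difference was 0.09 between tamoxifen+rapamycin and tamoxifen, with 27 of 37 above 0, and -0.01 in each of the other 2 comparisons, with 18 and 17 of 37 above 0. The summed level lay between 1660 and 1769 CPM in all 6 mice.

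**Figure D3:**
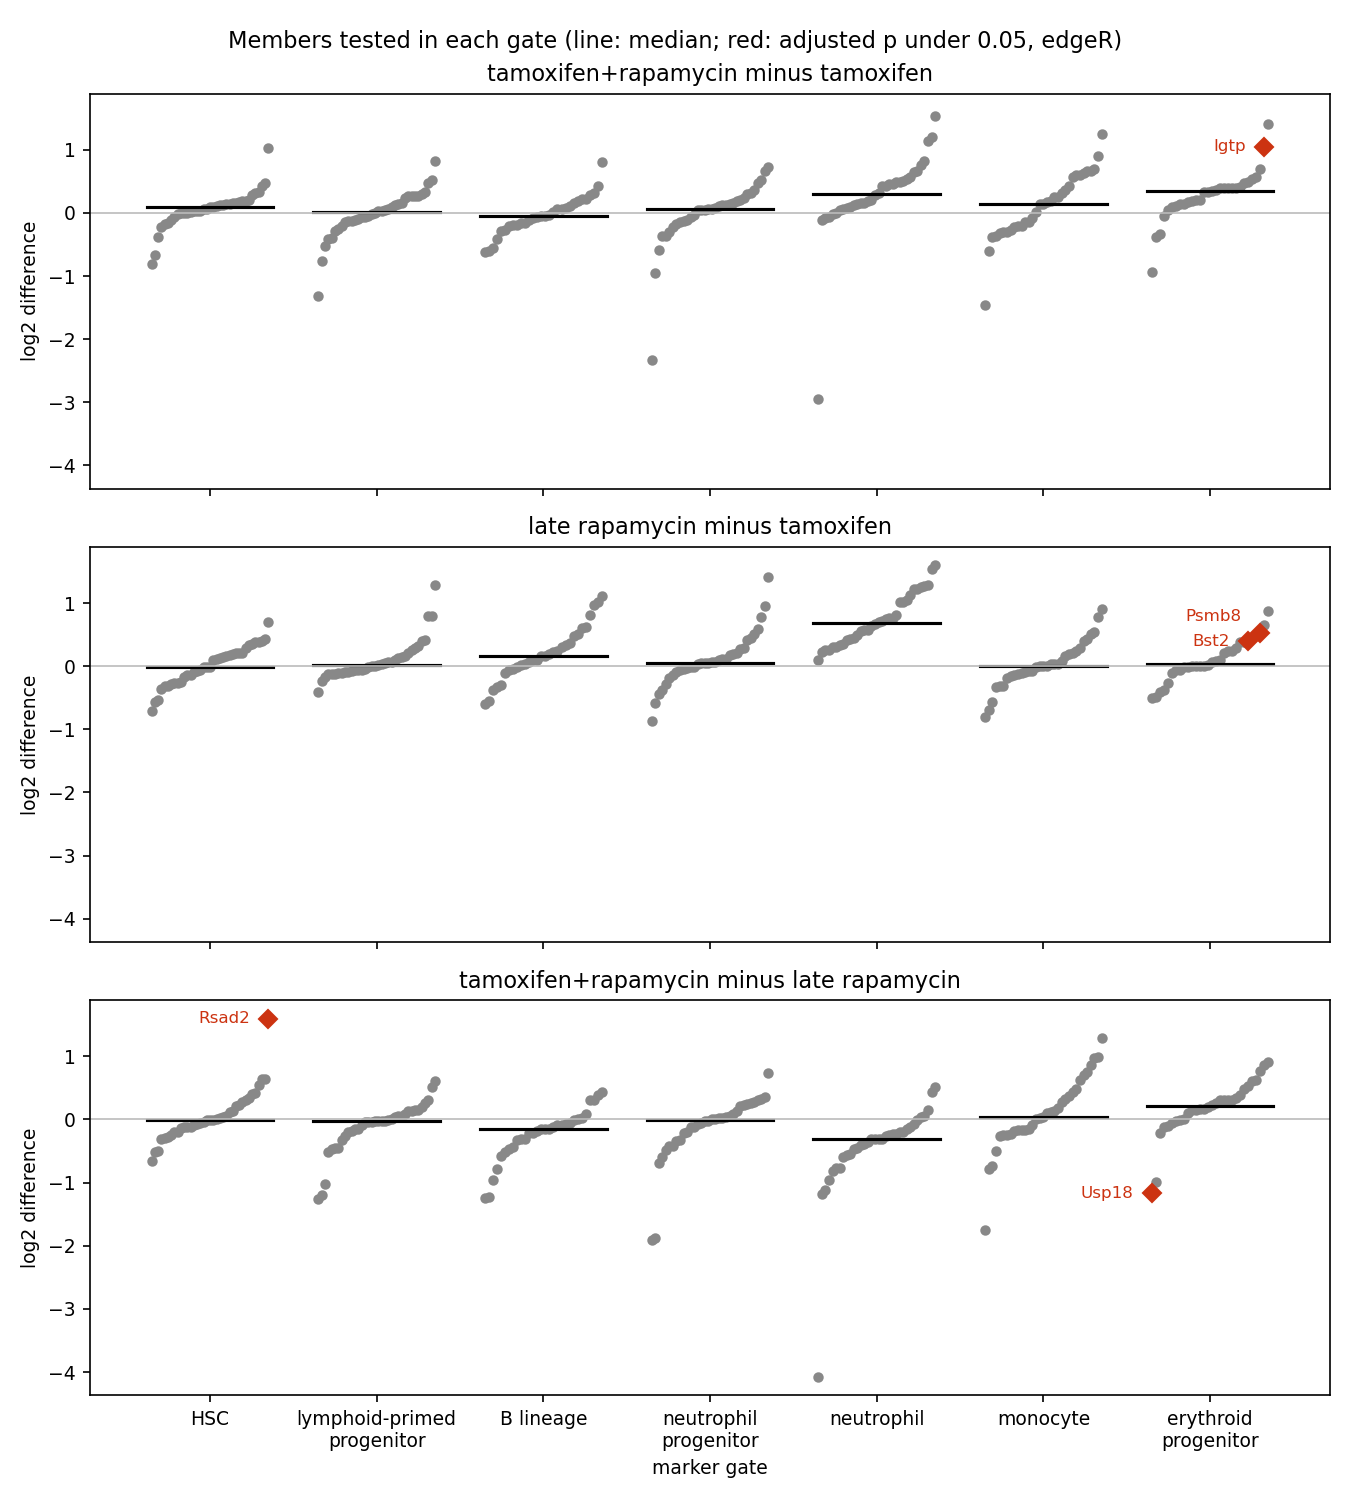
Fitted log2 difference of every member tested (points) in each of 7 gates for the 3 treatment comparisons, with the median as a black line and members past an edgeR adjusted p of 0.05 in red. Points lie around 0 in the HSC gate, all 34 lie above 0 in the neutrophil gate between late rapamycin and tamoxifen, and the 5 red points are Igtp, Bst2, Psmb8, Rsad2 and Usp18.

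Rsad2, or viperin, an enzyme that makes a chain-terminating nucleotide against viral replication, was the member called in the HSC gate. It was at 20.5 and 16.7 CPM in the tamoxifen+rapamycin mice, 7.70 and 9.81 in the tamoxifen mice and 6.86 and 5.66 in the late rapamycin mice, from 11 to 52 UMIs per mouse. Both tamoxifen+rapamycin mice were above all 4 others. In that gate tamoxifen+rapamycin lay above tamoxifen without overlap in 16.6% of all genes tested, and above late rapamycin in 21%. Rsad2 was 1.59 ± 0.29 higher than with late rapamycin (edgeR adjusted p = 0.027), and against tamoxifen the difference of 1.03 ± 0.27 did not pass (edgeR adjusted p = 0.39). The call was lost without either tamoxifen+rapamycin mouse (edgeR adjusted p = 0.17 without replicate 1 and 0.066 without replicate 2) and held without any of the other 4. The HSC gate call was also lost under a stricter cell filter (1000 genes, 2000 UMIs and 5% mitochondrial UMIs as limits). In the neutrophil gate Rsad2 was at 48.2 and 59.9 CPM with tamoxifen+rapamycin, 13.2 and 36.0 with tamoxifen and 31.5 and 80.4 with late rapamycin. There the groups overlapped in the comparison with late rapamycin.

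Cmpk2, a mitochondrial nucleotide kinase induced by interferon, lies 12751 bases from Rsad2 on the opposite strand and is no member. In the erythroid gate it was at 35.2 and 31.8 CPM in the tamoxifen+rapamycin mice and 13.4 to 25.3 in the other 4. It rose by 0.87 ± 0.17 against tamoxifen (edgeR adjusted p = 0.023) and by 0.88 ± 0.17 against late rapamycin (edgeR adjusted p = 0.036). In the HSC gate it was at 15.7 and 8.65 CPM against 5.06 to 8.73 in the others, which did not pass. Both tamoxifen+rapamycin mice were also above the others in the lymphoid-primed gate (11.0 and 12.4 CPM against 2.42 to 9.79). The same held in the neutrophil progenitor gate (10.7 and 12.1 against 2.85 to 6.22) and the B lineage gate (11.6 and 14.8 against 6.99 to 11.1). None of these differences passed. In the neutrophil and monocyte gates tamoxifen+rapamycin overlapped with the other mice. Rsad2 itself was at 3.50 and 3.73 CPM in the erythroid gate, against 1.41 to 3.41.

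The other 4 calls were in the erythroid gate. Igtp (Irgm3), a GTPase of the IRG family, was at 17.9 and 11.5 CPM with tamoxifen+rapamycin, 7.77 and 6.22 with tamoxifen and 8.10 and 8.54 with late rapamycin. Both values with tamoxifen+rapamycin were above the other 4. In that gate tamoxifen+rapamycin lay above tamoxifen without overlap in 20.9% of all genes tested, and above late rapamycin in 17.7%. Igtp rose by 1.05 ± 0.22 against tamoxifen (edgeR adjusted p = 0.035). That call was lost without tamoxifen replicate 1 (edgeR adjusted p = 0.25), tamoxifen replicate 2 (0.39) or tamoxifen+rapamycin replicate 1 (0.47, with a difference of 0.79). Usp18, the protease that removes Isg15 and holds back type I interferon signalling, was at 3.92 and 6.27 CPM with tamoxifen+rapamycin, 7.40 and 12.1 with tamoxifen and 10.7 and 12.8 with late rapamycin. It fell by 1.17 ± 0.23 against late rapamycin (edgeR adjusted p = 0.037), and the p rose to between 0.055 and 0.21 without either tamoxifen or either tamoxifen+rapamycin mouse.

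Psmb8 in the erythroid gate was at 71.1 and 97.9 CPM with late rapamycin, 63.5 and 55.1 with tamoxifen and 81.0 and 82.5 with tamoxifen+rapamycin. It rose by 0.53 ± 0.12 in late rapamycin against tamoxifen (edgeR adjusted p = 0.038), and the call was lost without tamoxifen replicate 2 (0.27, edgeR adjusted p = 0.63) or late rapamycin replicate 2 (0.23, edgeR adjusted p = 0.30). Bst2 was at 91.5 and 100.2 CPM with late rapamycin, 80.2 and 66.8 with tamoxifen and 82.4 and 82.8 with tamoxifen+rapamycin. It rose by 0.39 ± 0.09 against tamoxifen (edgeR adjusted p = 0.043), which was lost without tamoxifen replicate 1 (edgeR adjusted p = 0.066), tamoxifen replicate 2 (0.64, difference 0.21) or late rapamycin replicate 2 (0.15, difference 0.26). In both genes the lowest late rapamycin mouse was above the highest tamoxifen mouse. The same held for 22.6% of all genes tested in that gate and for 6 of the 30 members.

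**Figure D4:**
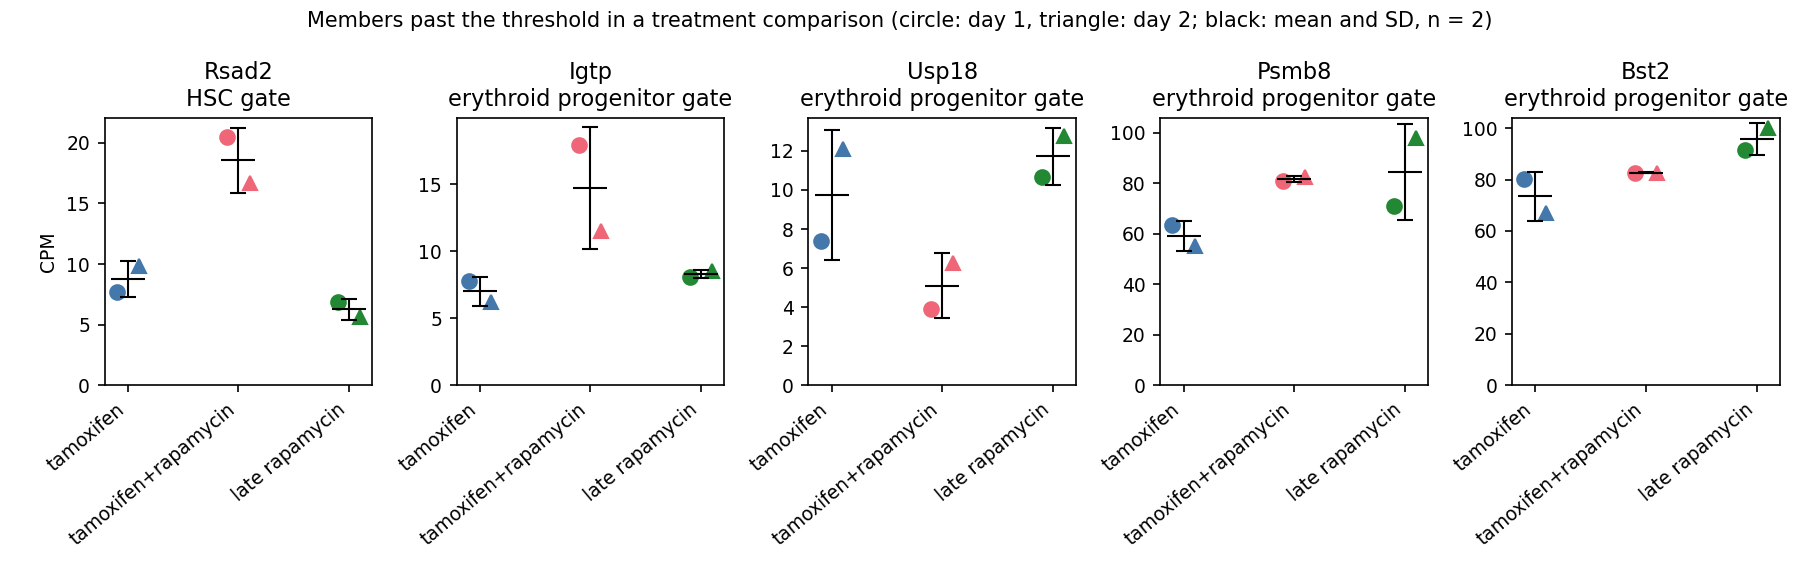
CPM of the 5 members past the threshold in a treatment comparison, by treatment and mouse (circle: day 1, triangle: day 2), with mean and SD (n = 2) in black. Rsad2 and Igtp are highest and Usp18 lowest in both tamoxifen+rapamycin mice, and Psmb8 and Bst2 are lowest in both tamoxifen mice.

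As a group the erythroid gate members stood at a median of 0.34 between tamoxifen+rapamycin and tamoxifen. Of these, 26 of 30 were above 0 (49.5% of all genes there) and 11 were at an unadjusted p under 0.05 (11.2%). The summed level was 883 and 845 CPM with tamoxifen+rapamycin, 788 and 637 with tamoxifen and 715 and 845 with late rapamycin, so tamoxifen+rapamycin was above tamoxifen, while its lower mouse and the higher late rapamycin mouse were level. Further members with small p that did not pass were Oasl1 (30.3 and 30.0 CPM against 21.6 and 19.3 with tamoxifen), Gbp7 (51.5 and 40.8 against 37.9 and 32.0) and Irgm1 (41.0 and 36.3 against 32.4 and 26.6). Ifi35 was at 40.5 and 37.8 with late rapamycin against 28.6 and 28.2 with tamoxifen (edgeR adjusted p = 0.054). Haemoglobin RNA (Hba-a1 and Hbb-bs) in this gate was at 1556 and 1992 CPM with tamoxifen+rapamycin, 1186 and 905 with tamoxifen and 637 and 1205 with late rapamycin, and its part in these results was not tested.

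In the neutrophil gate all 34 members tested were above 0 between late rapamycin and tamoxifen, with a median of 0.68 where all genes had 0.00, and in 26 of 34 the late rapamycin mice lay above both tamoxifen mice without overlap. Of all genes tested in that gate 50.4% were above 0, 24.9% had the late rapamycin mice above without overlap and 0% were called. Of the 34, 14 had an unadjusted p under 0.05, against 6.92% of genes, and 0 passed the adjusted threshold by edgeR or by DESeq2. The members with the smallest p were Oas2 (177 and 122 CPM with late rapamycin, 56.0 and 62.1 with tamoxifen), Isg15 (86.3 and 119 against 36.3 and 61.1), Trim30a (411 and 180 against 64.3 and 108) and Zbp1 (48.6 and 35.0 against 8.24 and 17.4). Their log2 differences were 1.22, 1.01, 1.61 and 1.54, each with an edgeR adjusted p of 0.69. With plain totals 33 of 34 were above 0 with a median of 0.52, while the median over all genes was -0.16. Without late rapamycin replicate 1 the median was 0.81 and 11 members passed, where 1.12% of all genes in that gate did. Without late rapamycin replicate 2 it was 0.47 and 13 members passed, where 24.3% of all genes did. Removing one of these mice left 1 late rapamycin mouse, assumed to vary like the other groups.

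The same leave-outs raised the counts across all gates and across all genes. Without late rapamycin replicate 1 the 3 comparisons had 16, 20 and 17 members passing, and without replicate 2 they had 16, 32 and 36. Of all tests 2.2%, 2.06% and 1.66% passed in the first case and 2.17%, 12% and 11.7% in the second, against 0.269%, 0.516% and 0.275% with all mice. In a fit of the tamoxifen and tamoxifen+rapamycin mice alone 18 member tests passed, 9 of them among 29 members in the erythroid gate, where 7.03% of all genes passed. Another 4 were among 31 members in the neutrophil gate (1.47% of genes) and 2 among 35 in the lymphoid-primed gate (1.69%). The HSC, B lineage and neutrophil progenitor gates had 1 each (1.08%, 4.01% and 0.648%), and the monocyte gate 0 (0.397%).

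In the HSC gate Iigp1 and Samhd1 had small p values short of a call. Iigp1 was at 27.4 and 28.7 CPM in the late rapamycin mice and 42.0 to 50.1 in the other 4, with no overlap. Late rapamycin lay below tamoxifen without overlap in 19.4% of all genes tested in that gate. The Iigp1 difference from tamoxifen of -0.70 ± 0.15 had an edgeR adjusted p of 0.060. Samhd1 was at 87.3 and 78.9 CPM with late rapamycin, 97.6 and 99.97 with tamoxifen and 113 and 104 with tamoxifen+rapamycin (edgeR adjusted p = 0.11 between the last and late rapamycin). In the monocyte gate Tap1 was at 143 and 95.5 CPM with tamoxifen+rapamycin and 56.6 and 40.5 with late rapamycin (edgeR adjusted p = 0.50).

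Oasl2, an OAS-like protein with ubiquitin-like repeats, was lower in both tamoxifen+rapamycin mice than in all 4 others in 5 of the 7 gates. It was singled out after its values were seen, and the 7 gates come from the same 6 mice. How many of all genes have such a pattern over gates was not counted. In the HSC gate tamoxifen+rapamycin lay below tamoxifen without overlap in 17.6% of all genes tested, and below late rapamycin in 23.1%. In the HSC gate Oasl2 was at 24.7 and 23.7 CPM against 28.1 to 44.1, and in the lymphoid-primed gate at 11.6 and 16.9 against 24.9 to 47.3. The neutrophil progenitor gate gave 2.11 and 1.13 against 3.08 to 10.8. The neutrophil gate had 6.03 and 4.61 (4 UMIs in each mouse) against 38.2 to 164. The monocyte gate had 20.4 and 19.5 against 30.9 to 107. In the B lineage and erythroid gates it had 13 and 50 UMIs in all, and tamoxifen+rapamycin overlapped with the other mice.

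In the edgeR fit described above, with all 6 mice, Oasl2 passed in no gate. The adjusted p was 0.17 in the HSC gate, 0.20 in the lymphoid-primed gate and 0.40 in the neutrophil gate between tamoxifen+rapamycin and late rapamycin, where DESeq2 gave an adjusted p of 0.0013 for the neutrophil gate. Without the filter on low counts edgeR called Oasl2 in the HSC, lymphoid-primed, neutrophil and monocyte gates, and fits of only the 4 mice compared called it in the lymphoid-primed, neutrophil progenitor and neutrophil gates. Leaving out 1 mouse at a time also called it in at least 1 gate, except without tamoxifen+rapamycin replicate 2. With the mean over the 7 gates as 1 value per mouse, the difference was -1.57 ± 0.31 against late rapamycin (limma adjusted p = 0.18) and -1.29 ± 0.31 against tamoxifen (limma adjusted p = 0.53). In that fit 0 members passed in any comparison (0.0256%, 0.0341% and 0.0852% of 11732 genes did), and the unadjusted p of Oasl2 was 0.0006 against late rapamycin.

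Oasl2 (chr5:114896936-114912234, plus strand, GRCm38) lies 11005 bases from Oasl1, whose groups overlapped in the HSC gate (7.22 and 9.61 CPM against 5.56 to 12.5). Dynll1, a dynein light chain, and Rplp0, a ribosomal protein, lie 384875 and 647232 bases from it and are no members. In the HSC gate Dynll1 was at 77.6 and 79.5 CPM in the tamoxifen+rapamycin mice and 124 to 171 in the others, and Rplp0 at 1105 and 1180 against 1496 to 1697. Dynll1 fell by 1.07 ± 0.10 against late rapamycin (edgeR adjusted p = 0.00027) and by 0.66 ± 0.11 against tamoxifen (edgeR adjusted p = 0.038). Rplp0 fell by 0.54 ± 0.09 against late rapamycin (edgeR adjusted p = 0.012). Both genes were also lowest in the tamoxifen+rapamycin mice in the lymphoid-primed and neutrophil progenitor gates. In the lymphoid-primed gate Dynll1 was at 125 and 136 CPM against 159 to 213, and Rplp0 at 1458 and 1408 against 1679 to 1932. Dynll1 was likewise lowest in the neutrophil gate, and Rplp0 in the monocyte and erythroid gates. In their remaining gates tamoxifen+rapamycin overlapped with the other mice. Whether the neighbouring values are connected with that of Oasl2 was not tested.

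**Figure D5:**
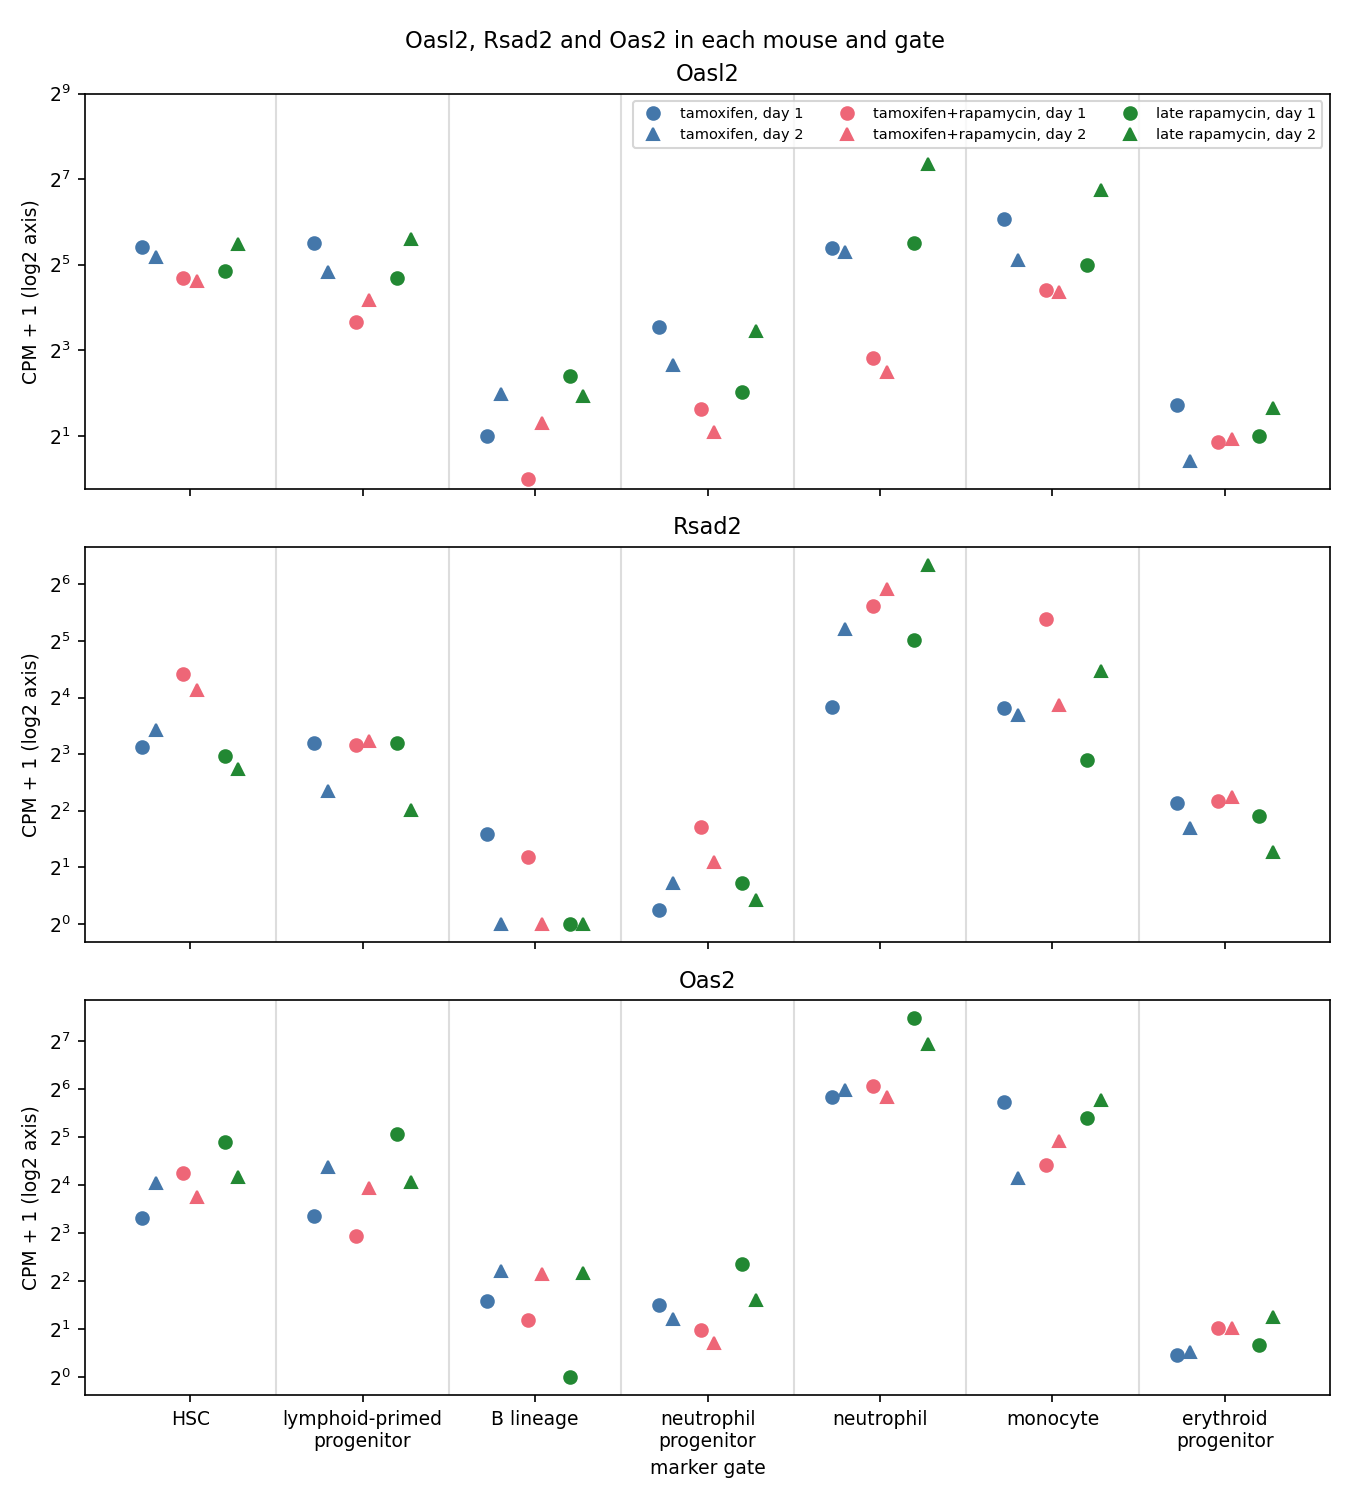
CPM plus 1 (log2 axis) of Oasl2, Rsad2 and Oas2 in each mouse (circle: day 1, triangle: day 2) and gate. Oasl2 is lowest in both tamoxifen+rapamycin mice in 5 gates, most of all in the neutrophil gate (6.03 and 4.61 CPM against 38.2 to 164). Oas2 is highest in both late rapamycin mice in the neutrophil gate (177 and 122 CPM).

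Whether a treatment difference in a lineage departed from that in the HSC gate was tested with an interaction term over 6 lineages and 3 comparisons, in which 0.0128% of 211176 gene tests passed. Among the members 2 did, both in the neutrophil gate. For Oasl2 the difference between tamoxifen+rapamycin and late rapamycin was 3.62 ± 0.59 further below 0 than in the HSC gate (edgeR adjusted p = 0.011). It did not pass without tamoxifen+rapamycin replicate 1 (0.15) or replicate 2 (0.65). For Trim30a the difference between late rapamycin and tamoxifen was 1.78 ± 0.36 larger (edgeR adjusted p = 0.037). Trim30a in the HSC gate ranged only from 116 to 123 CPM over all 6 mice. That call was lost without any mouse but late rapamycin replicate 2, and without late rapamycin replicate 1 the value was 1.04 (edgeR adjusted p = 0.14).

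The rest of the pathway was read from a list of 98 other genes, of which 76 had enough counts to be tested in at least 1 gate. Interferons themselves were hardly seen: of 11 ligand genes only Ifng, with 5 UMIs, and Ifnk, with 1, had any in the 7 gates. Of the 6 receptor genes 5 were higher in the monocyte gate than in the HSC gate under both scalings, and 6 in the neutrophil gate after TMM (3 higher and 1 lower with plain totals). Of the 10 signal transduction genes 7 were higher and 0 lower in the monocyte gate (4 and 2 with plain totals), and 0 higher and 8 lower in the erythroid gate under both. Of the other class I presentation genes 6 of 9 were higher and 3 lower in the monocyte gate (4 and 3 with plain totals). In the erythroid gate 1 was higher and 6 lower (1 and 8 with plain totals). The 34 other induced genes tested were 15 higher and 10 lower in the monocyte gate and 5 higher and 27 lower in the erythroid gate. With plain totals these were 13 and 14, and 3 and 28. Of all genes 32.6% were called higher and 35.1% lower in the monocyte gate (23.7% and 48.4% with plain totals). In the erythroid gate the shares were 38.9% and 43.3% (28.5% and 53.8%), and in the neutrophil gate 37.7% and 45.7% (16.3% and 72.9%).

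Between treatments 5 of the tests of these pathway genes passed, all in the erythroid gate and all among the other induced genes, of 437 tests per comparison. None of the receptor, signal transduction, sensing, regulator or class I genes passed. Besides the 2 for Cmpk2, these were Ifitm1, Ifitm3 and Lgals9 between late rapamycin and tamoxifen. Ifitm1, which blocks virus entry at membranes, was at 80.0 and 37.1 CPM with late rapamycin and 16.9 and 18.5 with tamoxifen and rose by 1.57 ± 0.21 (edgeR adjusted p = 0.0016). Ifitm3, its relative, was at 99.7 and 85.3 against 70.2 and 52.9 and rose by 0.59 ± 0.09 (edgeR adjusted p = 0.0044). Lgals9, or galectin 9, was at 203 and 273 against 346 and 325 and fell by 0.50 ± 0.09 (edgeR adjusted p = 0.0095). Genes with small p that did not pass were Nlrc5 in the erythroid gate (0.75 between tamoxifen+rapamycin and late rapamycin), Slfn5 in the neutrophil gate (2.22 between late rapamycin and tamoxifen) and Irf5 in the lymphoid-primed gate (1.46 between tamoxifen+rapamycin and late rapamycin).

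Ifitm1 set late rapamycin replicate 1 apart in every gate. It was at 5630 CPM in the neutrophil gate of that mouse against 89.0 to 193 in the other 5, at 1370 against 105 to 180 in the neutrophil progenitor gate and at 1786 against 571 to 672 in the HSC gate. Ifitm2 and Ifitm3 were at 5056 and 5293 CPM in its neutrophil gate against 941 to 1187 and 1373 to 2135. Rplp0 was at 1778 CPM there against 513 to 574. The sum of the members in the neutrophil gate was 3761 CPM in late rapamycin replicate 1 and 4195 in replicate 2, both above the 2217 to 2907 of the other 4 mice, and in the HSC gate of replicate 1 it was 1702 CPM, inside the range of the others. Trim30a, Oas2 and Zbp1 were higher in the neutrophil gate of replicate 1 and Isg15 in that of replicate 2.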

How the data were processed

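Single bone marrow cells of 6 mice were read with 10x 3′ gene expression and hashtag antibody libraries. The deposited matrices hold UMI counts per gene and cell and per hashtag, made by the authors with Cell Ranger (8.0.1 per the file headers, 7.0.0 per the submitters' processing notes) on mm10. Whether introns were counted is not given in the sources used here. A cell was assigned to a mouse by its single hashtag. Cells with under 500 genes, under 1000 UMIs or over 10% mitochondrial UMIs were left out, and so were 2 kinds of doublet, cells with several hashtags (3124 and 2495 on the 2 days) and cells with many such neighbours (1526 and 1213). A gate needed at least 3 of its markers and a 1.5-fold margin over other lists, and 9443 cells (27.7%) had none.

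UMI counts were summed per gate and mouse and tested with edgeR 4.0.16 (TMM, filterByExpr, quasi-likelihood test, two-sided, day as a block) across all genes, with Benjamini-Hochberg adjustment within each gate and comparison. Lineages were compared in 1 fit with mouse as a block, and marker genes were left out of its background. limma 3.58.1 and DESeq2 1.42.0 served as alternatives. R 4.3.3 and Python 3.11.15 were used, and the edgeR and DESeq2 fits were tested on simulated data. Replicate number is the day, which the study gives as a batch, and deviations of same-day mice correlated at 0.0684 to 0.0828 in the HSC gate over 11308 genes. Nothing says more of how the 2 mice of a treatment are related than that they are separate mice. Intervals are exact binomial or Poisson and, like the 3-count limits at 0, cover counting error only.

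The members and all gene lists were chosen with earlier results of these data known. Named per mouse were all members called and, up to 8 in a comparison, those with the smallest p. Named across lineages were the 3 highest members of a gate and up to 5 with the largest called difference each way. The limit of 12 members per cell, the plain UMI totals, the fits of 4 mice, the repeats of the interaction test and the mean over gates were added after the data had been seen. Gene positions are those of GRCm38.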

Additional observations from a re-analysis of the deposited data

Results flagged for a closer look

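For 2 members the treatment difference in the neutrophil gate departed from that in the HSC gate. For Trim30a the difference between late rapamycin and tamoxifen was larger by 1.78 ± 0.36 (log2, SE; edgeR interaction test, adjusted p = 0.037), with 411 and 180 CPM against 64.3 and 108 in the neutrophil gate. Late rapamycin replicate 1, the mouse that stands apart in Ifitm1, holds the highest of these values. For Oasl2 the difference between tamoxifen+rapamycin and late rapamycin was lower by -3.62 ± 0.59 (adjusted p = 0.011), and the 2 tamoxifen+rapamycin libraries of the neutrophil gate hold 4 UMIs of Oasl2 each.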

How the results depend on the processing

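Counts of members called between treatments moved most. For tamoxifen+rapamycin against tamoxifen, late rapamycin against tamoxifen, and tamoxifen+rapamycin against late rapamycin (1, 2 and 2 calls), no low-count filter gave 10, 10 and 15 (with 0.658%, 1.25% and 1.09% of all tests called), DESeq2 0, 0 and 1 (0.064%, 0.15% and 0.118%), and no doublet removal 0, 0 and 1 (0.135%, 0.321% and 0.238%), against 0.269%, 0.516% and 0.275%. A strict gate gave 1 for the second (Psmb8 was lost), a strict cell filter 1 for the third (Rsad2 was lost), and plain totals 2 for the first. Fits of only the 4 mice compared gave 18 for the first and 1 for the second. Leaving out 1 mouse at a time gave 0 to 16, 1 to 32 and 0 to 36 calls, and 0 to 6 interaction calls against 2. Without the replicate block the counts were 0, 0 and 1, Rsad2 in the HSC gate alone remaining, and the HSC gate median between late rapamycin and tamoxifen was 0.0147. That median (-0.0073) was 0.0047 with no low-count filter, 0.0629 with the strict cell filter, -0.0378 with the strict gate, 0.132 with no doublet removal, 0.0104 in the 4 mice and -0.0142 to 0.0548 without 1 mouse. Between tamoxifen+rapamycin and late rapamycin (-0.0091) it was -0.0241, -0.0368, 0.0197 and 0.0506 under the first 4 of these and -0.0048 to 0.024 without 1 mouse. The 177 lineage calls stayed within 156 to 181, though plain totals turned the neutrophil split, where they called 72.9% of all genes lower. The strict cell filter narrowed that split from 23 higher and 9 lower to 14 and 10. Cause was not tested in any of these. DESeq2 gave no adjusted p for Psmb8, Bst2 and Rsad2 in the comparisons that called them, so its counts do not test those calls. Libraries of 211552 UMIs limit members of a few CPM.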

Other observations

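Gates too small to test also held member RNA, pooled over mice and with exact Poisson intervals. In 136 plasmacytoid dendritic-like cells, a type known for making type I interferon, Bst2 was at 3060 CPM of plain UMI totals (95% interval 2865 to 3264; 920 of 300677 UMIs). Trim30a was at 492 CPM, Psmb8 at 466, Ifi27l2a at 402, Samhd1 at 293 and Stat2 at 263 there. In 294 megakaryocyte-like cells Psmb8 led with 275 CPM (250 to 302), followed by Psmb9 with 171. In 158 T and NK-like cells Psmb8 was at 429 CPM (362 to 505), Psmb9 at 220 and the transcription factor Irf1 at 203.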
